A study of Mus musculus with 2 samples.

Results

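The circadian clock genes Arntl, Clock, Npas2, Per1, Per2, Per3, Cry1, Nr1d1, Nr1d2 and Dbp were examined in primary hepatocytes of oil-injected and CCl4-injected mice. These 10 genes were taken from a fixed list of names, not from their values, although earlier results of these data were known when they were chosen. They are 10 of the 20317 genes with a symbol in the mRNA table. The data were 2 RNA-seq libraries, 1 for each condition. The mice were wild-type male C57BL/6J, 5 weeks old when obtained, and the control mice received oil. The CCl4 mice were given CCl4 at 20% in mineral oil, at 2.5 ml per kg, by 2 intraperitoneal injections a week. The labels give a course of 8 weeks, and the methods text gives 4 weeks. CCl4 is a solvent that is turned into a toxic radical by hepatocytes, and repeated injection leads to liver fibrosis. The mice could feed freely. Their livers were digested with proteases, and hepatocytes were separated from the other cells by density. The number of mice behind each library, the hour of perfusion, the lighting schedule and the interval since the last injection are not given in the sources used here. With 1 library per condition, no difference below has a replicate check and no p-value is given.

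The circadian clock is a feedback loop of transcription factors that runs in nearly every cell type, hepatocytes and the other cells of the liver included. ARNTL, also called BMAL1, pairs with CLOCK or its relative NPAS2 and activates the Per, Cry, Nr1d and Dbp genes through E-box sequences. PER and CRY proteins then hold the pair back, the REV-ERB receptors encoded by Nr1d1 and Nr1d2 repress Arntl, Clock, Npas2, Cry1 and Nfil3 through RORE sequences that ROR receptors activate, and DBP acts on D-box sequences. In mouse liver the mRNAs of Arntl and Npas2 are highest around the end of the night, those of Nr1d1, Dbp and the Per genes follow in turn through the day and the evening, and that of Cry1 is highest late in the night. A single time point therefore shows a snapshot of the cycle.

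The sequences that connect these genes were looked up in the RefSeq promoter windows of GRCm38.p6, the assembly that mm10 names, from 250 bases before to 50 bases after each annotated start. Windows were found for 9 of the 10 genes, and Per2 was the exception. Both strands were searched for the E-box CACGTG, the E′-box CACGTT, the D-box TTATGTAA or TTACGTAA and the RORE core TAGGTCA. Of all 32851 windows, the E-box was in 7.15%, the E′-box in 4.68%, the D-box in 1.06% and the RORE core in 2.61%. Matches are descriptions of the letters, and the windows of Clock, Npas2, Nr1d2 and Dbp held none of them. The matches are shown because these letters are the ones that the factors of the loop are known to bind, each 5′ to 3′ on the strand of its gene with the motif in capitals.
Per1 E-box, chr11:69098765-69098806, plus strand: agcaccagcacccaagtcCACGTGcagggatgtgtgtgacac
Cry1 E-box, chr10:85185091-85185132, minus strand: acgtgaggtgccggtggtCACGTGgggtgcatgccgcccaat
Cry1 E′-box, chr10:85185110-85185151, minus strand: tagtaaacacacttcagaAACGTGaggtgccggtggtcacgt
Nr1d1 E′-box, chr11:98775382-98775423, minus strand: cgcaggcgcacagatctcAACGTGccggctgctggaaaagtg
Per3 first D-box, chr4:151044845-151044888, minus strand: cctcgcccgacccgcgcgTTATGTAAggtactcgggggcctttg
Per3 second D-box, chr4:151044798-151044841, minus strand: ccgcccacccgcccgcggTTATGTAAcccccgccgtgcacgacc
Arntl RORE core, chr7:113207531-113207557, plus strand: aggcagaaagTAGGTCAgggacggagg
The E′-box of Cry1 and Nr1d1 appears as AACGTG because it lies on the opposite strand, and the windows of the 2 Cry1 motifs overlap. Arntl has 2 promoter windows, and its RORE core lies 31 bases after the downstream one of the 2 starts, inside the gene's span. Per1 also has 2 windows, and its E-box lies 166 bases before the upstream one of its starts, likewise inside the span of the gene. The windows place the Nr1d1 motif 28 bases before its start and the Per3 motifs 205 and 158 bases before theirs.

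Levels are given as RPKM (reads adjusted for transcript length and sequencing depth), so that genes can be compared with each other. No value between 0 and 1 RPKM is in the table. Because reads are whole, the spacing of low values in short genes yields each library's depth, which was 57992600 reads for oil and 64655600 for CCl4. From these totals the reads behind a transcript were recovered as lower bounds, and the 95% intervals given here (exact Poisson for a level, exact Clopper-Pearson for a log2 ratio) cover counting error only, not the variation between animals or preparations. Where the recovered reads are too few, an interval is wider than the counting error. Fold changes are CCl4 over oil on the log2 scale after 0.1 RPKM was added to both levels, which understates the change of weakly expressed genes. A gene was called higher or lower where that value was 1 or more away from 0. A gene listed at 0 in 1 library was taken at 1 RPKM there. Of 12012 genes with a value in at least 1 library, 15.5% were called higher and 5.25% lower, and the median gene had a log2 fold change of 0.32. Of these calls 74.7% were higher, whereas after both libraries were scaled to the median gene 49.2% were higher. Under that scaling 8.89% of the genes were called higher and 9.17% lower, and scaled to the median hepatocyte marker 79.5% were called higher and 0.549% lower.

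Of the 10 clock genes, only Dbp was called higher in the CCl4 library and none was called lower in the main setting. The share of 1 in 9 genes with a value lies near the 15.5% of all genes called higher. Dbp went from 1.72 to 5.34 RPKM, Nr1d1 stood at 1.39 and 2.84 RPKM, and Nr1d2 at 3.09 and 4.77 RPKM. Cry1 moved the other way, from 7.39 RPKM in the oil library to 3.88 RPKM in the CCl4 library, without reaching the fold used for a call. Arntl, Clock, Per1 and Per2 each differed by at most 0.21 on the log2 scale. The 8 genes with a value in both libraries had a median log2 fold change of 0.02, with 4 above and 4 below 0.

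**Figure D1:**
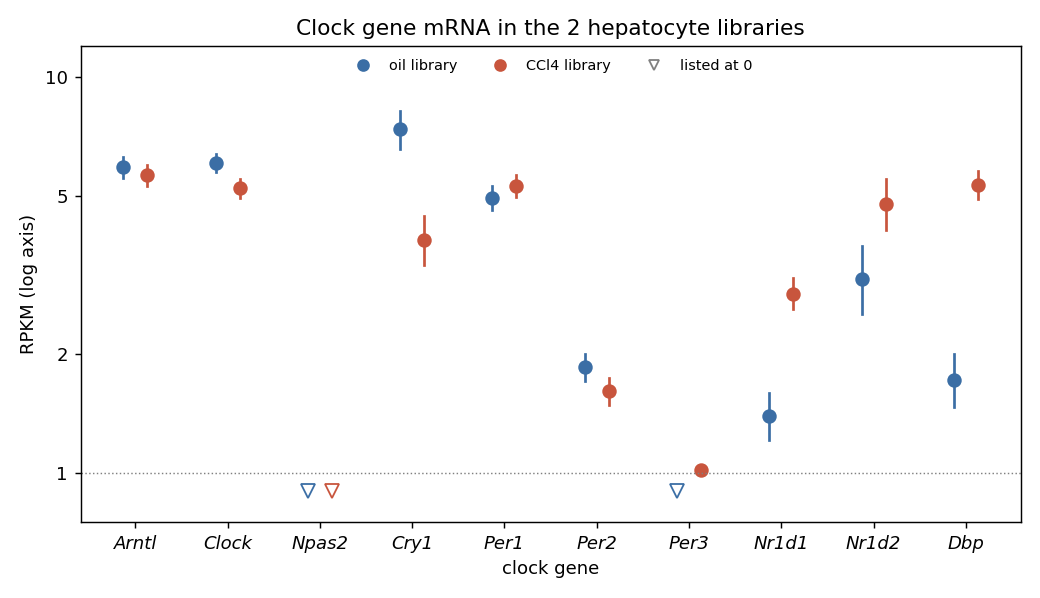
RPKM of each clock gene (log axis) in the oil library (blue) and the CCl4 library (red), with exact 95% Poisson intervals of the recovered reads as vertical lines; open triangles mark a gene listed at 0, and Per3 in the CCl4 library has no interval because its reads were not recovered. In the deposited values Dbp, Nr1d1 and Nr1d2 lie higher in the CCl4 library and Cry1 lies lower (0.32 higher on the log2 scale if scaled to the median hepatocyte marker), whereas the points of Arntl, Clock, Per1 and Per2 lie close together.

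The activators came first in the loop and differed little between the libraries. Arntl, the partner that every activator pair needs, is a gene of chromosome 7 (mm10 positions 113178471 to 113314126). It was at 5.92 RPKM (5.56 to 6.30) in the oil library and at 5.65 RPKM (5.32 to 6.00) in the CCl4 library, intervals that overlap. These values rest on at least 999 and 1063 reads, and the log2 ratio of the reads was -0.07 with a counting interval from -0.19 to 0.06. Its second RefSeq transcript, NM_001243048, which shares most of its reads with NM_007489, gave 5.88 and 5.66 RPKM. Both Arntl entries thus showed the same small difference.

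Clock encodes the DNA-binding partner of ARNTL. Its oil level was 6.07 RPKM (5.75 to 6.41) and its CCl4 level 5.24 RPKM (4.95 to 5.53). The difference was -0.21 on the log2 scale, and the counting interval, from -0.33 to -0.10, leaves out 0. Clock was slightly lower in this CCl4 library beyond the sampling of reads, although scaled to the median hepatocyte marker it was at 1.03. Npas2, the relative of CLOCK, was listed at 0 in both libraries, so no direction can be given for it. The ratio of Clock to Arntl, which does not depend on the scaling of a library, was 1.02 under oil and 0.93 under CCl4, a difference whose counting interval contains 0.

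The Per genes encode the repressors that return to the nucleus with CRY proteins, and Per1 and Per2 differed little between the libraries. Per1, which also responds directly to glucocorticoids, was at 4.95 RPKM (4.62 to 5.30) in the oil library and at 5.31 RPKM (4.99 to 5.66) in the CCl4 library. The difference of 0.10 on the log2 scale became -0.20 when the libraries were scaled to the median gene, so its direction depends on the scaling. Scaled to the median hepatocyte marker, Per1 was at 1.34 and past the fold used for a call. The second Per1 transcript, NM_001159367, gave 4.88 and 5.24 RPKM on at least 1314 and 1575 reads.

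Per2 had an oil level of 1.85 RPKM (1.70 to 2.0) and a CCl4 level of 1.61 RPKM (1.48 to 1.74), on at least 625 and 606 reads. The difference was -0.19 on the log2 scale, and with the median hepatocyte marker as the reference it was 1.01. Per3, whose promoter window holds both D-boxes shown above, was listed at 0 in the oil library and at 1.02 RPKM in the CCl4 library. The Per3 value lies at the edge of what the table lists, and no fold is given for it. The order Per1, Per2, Per3 was the same in both libraries.

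Cry1, the strongest repressor of the loop, had the largest decrease among the clock genes. It was the most abundant clock gene of the oil library with 7.39 RPKM (6.60 to 8.24) and ranked behind 5 other clock genes in the CCl4 library with 3.88 RPKM (3.34 to 4.47). The oil level was 1.91-fold the CCl4 level. The log2 fold change was -0.91, and the log2 ratio of at least 323 and 189 reads had a counting interval from -1.20 to -0.67. Only 6.22% of all genes had a log2 fold change as low as that of Cry1, and 3.08% of the 7019 genes with a mean between 1 and 10 RPKM. Scaled to the median gene, Cry1 was at -1.21 and past the fold used for a call, whereas scaled to the median hepatocyte marker it was at 0.32 and changed direction.

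The REV-ERB genes were both higher in the CCl4 library. Nr1d1, which encodes REV-ERB-alpha and carries the E′-box shown above, was at 1.39 RPKM (1.21 to 1.59) in the oil library and at 2.84 RPKM (2.59 to 3.10) in the CCl4 library. These levels rest on at least 212 and 482 reads, and their log2 ratio of 1.03 had a counting interval from 0.79 to 1.27. With 0.1 RPKM added the log2 fold change was 0.98, just short of a call, and without it Nr1d1 passed. The value was 0.68 with 1 RPKM added and 0.69 when scaled to the median gene, and 16.2% of all genes had a log2 fold change at least as high.

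Nr1d2, which encodes REV-ERB-beta, had an oil level of 3.09 RPKM (2.53 to 3.75) and a CCl4 level of 4.77 RPKM (4.10 to 5.53). The difference was 0.61 on the log2 scale, with a counting interval from 0.27 to 0.99 on at least 104 and 179 reads. Of all genes, 31.5% had a log2 fold change at least as high, so that the Nr1d2 value is an ordinary one in this pair of libraries. Nr1d2 remained the more abundant REV-ERB gene, at 2.22 times the Nr1d1 level under oil and 1.68 times under CCl4.

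Dbp, a PAR bZIP factor that carries the output of the clock to liver enzymes, showed the largest difference. It is a gene of chromosome 7 (mm10 positions 45705100 to 45710203) and was at 1.72 RPKM (1.47 to 2.0) in the oil library and at 5.34 RPKM (4.91 to 5.79) in the CCl4 library. The CCl4 level was 3.11-fold the oil level. The log2 fold change was 1.58, and the log2 ratio of at least 167 and 579 reads was 1.64, with a counting interval from 1.39 to 1.89. Among all genes 4.92% had a log2 fold change at least as high, and 5.78% of the genes with a mean between 1 and 10 RPKM. Dbp was called higher in 7 of the 9 alternative settings and its log2 fold change stayed between 1.22 and 2.82, while a mean of at least 5 RPKM left it out and a log2 fold change of 2 was not reached.

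**Figure D2:**
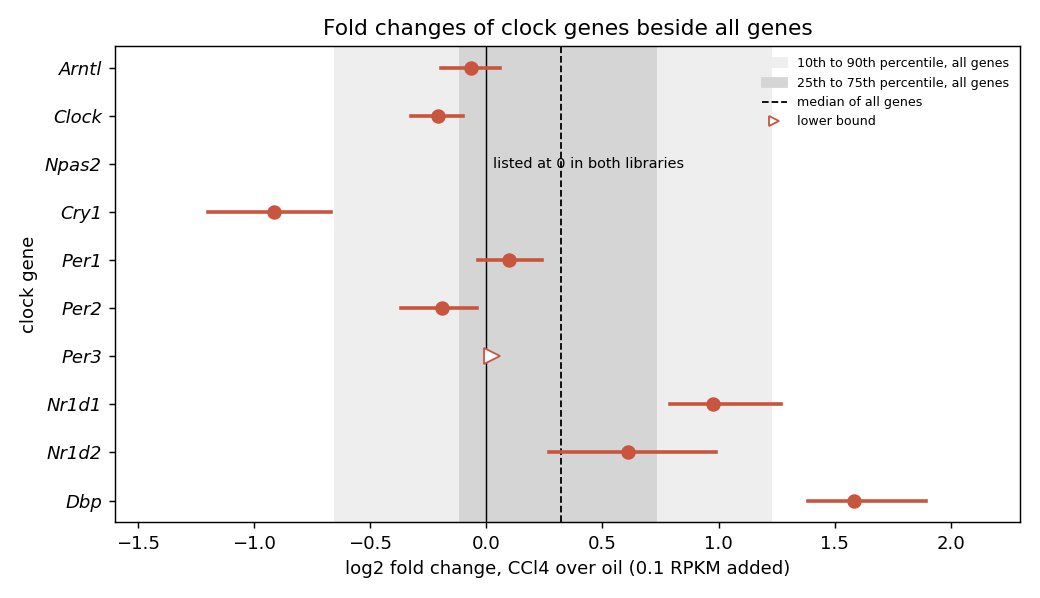
Log2 fold change of each clock gene (points, with 0.1 RPKM added) with the 95% counting interval of the log2 ratio of its reads (lines), beside 2 ranges of 12012 genes (grey bands, from -0.11 to 0.73 for the inner quartiles and from -0.65 to 1.23 for the inner deciles) and their median of 0.32 (dashed line). Dbp at 1.58 lies above the upper band and Cry1 at -0.91 below the lower one; scaled to the median hepatocyte marker Cry1 turns to 0.32, and the arrowhead of Per3 is a value with its listed 0 taken at 1 RPKM.

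The order of the levels differed between the libraries. In the oil library Cry1 was followed by Clock, Arntl, Per1, Nr1d2, Per2, Dbp and Nr1d1, with overlapping counting intervals between Clock and Arntl, Per2 and Dbp, and Dbp and Nr1d1. In the CCl4 library the order was Arntl, Dbp, Per1, Clock, Nr1d2, Cry1, Nr1d1, Per2 and Per3. Neighbors overlapped there from Arntl down to Nr1d2, whereas Nr1d1 lay below the interval of Cry1 and Per2 below that of Nr1d1. The intervals of Nr1d2 and Cry1 overlapped too, but their reads were recovered at short lengths of 580 and 754 bases. Those reads are lower bounds, so the intervals can be too wide and this overlap is not settled. Dbp thus stood among the weakest clock genes of the oil library and beside Arntl in the CCl4 library.

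Ratios of 2 genes in the same library are free of library scaling and were used to describe the levels of loop genes relative to each other in the 2 preparations. Arntl exceeded Nr1d1 4.26-fold under oil and 1.99-fold under CCl4, a difference of -1.10 on the log2 scale with an approximate counting interval from -1.36 to -0.83. Arntl exceeded Dbp 3.45-fold in oil and 1.06-fold in CCl4, a difference of -1.70 (-1.98 to -1.43). Relative to Arntl, both targets were more abundant in the CCl4 library.

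The ratios to Per1 and Per2 differed less, and for Per3, listed at 0 under oil, no ratio can be given. Arntl exceeded Per1 1.20-fold and 1.06-fold, a difference of -0.17 (-0.35 to 0.01), and Per2 3.21-fold and 3.52-fold, a difference of 0.13 (-0.07 to 0.34). Both intervals contain 0, whereas Clock over Per1 went from 1.23 to 0.99, a difference of -0.31 (-0.49 to -0.14). Cry1 over Dbp fell from 4.30 to 0.73, a difference of -2.57 (-2.93 to -2.21) and the largest among the pairs of clock genes compared. That rank follows from the single folds, because Cry1 had the lowest and Dbp the highest among the clock genes. The 6 targets Per1, Per2, Per3, Nr1d1, Nr1d2 and Dbp had a median of 0.36 on the log2 scale, near the 0.32 of all genes, and Arntl and Clock had one of -0.14, so the target side exceeded the activator side by 0.49. This contrast was 0.93 with the listed 0 of Per3 taken as 0 and 0.77 without a pseudocount, where Per3 drops out. It was 0.24 where genes averaging under 5 RPKM were left out and Per1 was the single target remaining. Cry1, which the loop also activates through E-boxes, was at -0.91 and was not counted among the 6 targets. Counting it there would lower the contrast, because the middle target would then be Per1, at 0.10.

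**Figure D3:**
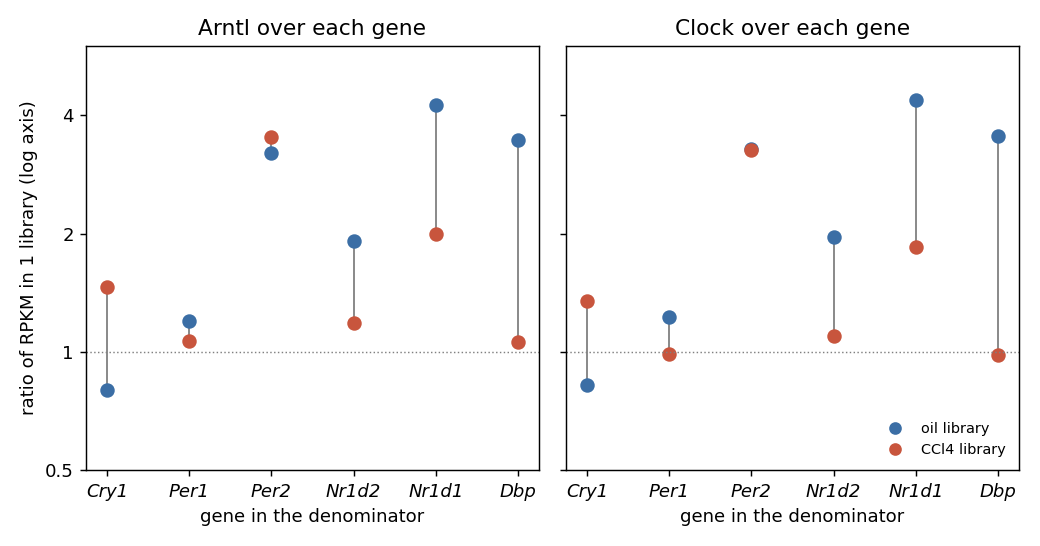
RPKM of Arntl (left) and Clock (right) divided by that of 6 other clock genes in the same library (log axis), in the oil library (blue) and the CCl4 library (red). The ratios to Nr1d1, Nr1d2 and Dbp are lower in the CCl4 library, those to Cry1 are higher, and those to Per2 nearly coincide.

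The hour of collection is not given and each condition is 1 preparation, so a difference in clock phase and an effect of CCl4 on these genes cannot be told apart. Whether the phase differed was not tested.

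Other genes of the loop gave 0 called higher and 3 called lower among 8 with a value, and the remaining 4, Rorb, Bhlhe41, Ciart and Arntl2, were listed at 0 in both libraries. Their median log2 fold change was -0.64, against 0.32 for all genes, and scaled to the median hepatocyte marker 2 were called higher and 0 lower. Of all genes 5.25% were called lower, and under that scaling 79.5% were called higher. Nfil3, a repressor at D-boxes and itself repressed by the REV-ERBs, went from 30.6 to 10.8 RPKM (log2 fold change -1.50). Rora, encoding ROR-alpha, went from 9.90 to 4.87 RPKM (-1.01), and it was at 0.23 when scaled to the median hepatocyte marker. Under that scaling Nfil3 stayed below 0, at -0.26.

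Cry2, the second cryptochrome, was at 4.85 and 2.57 RPKM, so that Cry1 exceeded it 1.52-fold under oil and 1.51-fold under CCl4. Both cryptochromes differed to the same extent, and scaled to the median hepatocyte marker Cry2 was at 0.33. Bhlhe40, a repressor at E-boxes, was at 22.3 and 16.9 RPKM. Of the other PAR bZIP factors, Tef was at 7.23 and 9.41 RPKM and Hlf at 1.22 and 1.0 RPKM. The ratio of Dbp to Tef was 0.24 under oil and 0.57 under CCl4. Nfil3 exceeded Dbp 17.8-fold under oil and 2.01-fold under CCl4.

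Of 15 enzymes and enzyme subunits with a value that modify or degrade clock proteins, 1 was called higher and 1 lower, with a median of 0.24 (13 higher and 0 lower when scaled to the median hepatocyte marker), and Fbxl21 was listed at 0 in both libraries. These shares lie near those of all genes, 15.5% higher and 5.25% lower (79.5% and 0.549% under that scaling). Csnk1e, a kinase of PER proteins, went from 3.30 to 8.57 RPKM (log2 fold change 1.35), and its relative Csnk1d was at 15.8 and 23.1 RPKM. Prkaa2, a catalytic subunit of the energy sensor AMPK, which marks CRY1 for degradation, went from 4.2 to 1.93 RPKM (-1.08), and it was at 0.13 when scaled to the median hepatocyte marker. Prkaa1, the other catalytic subunit, went the opposite way, from 3.26 to 4.83 RPKM (0.55, and 1.79 under that scaling).

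Among 16 liver genes with rhythmic mRNA, 2 were called higher and 6 lower, with a median of -0.65. Of all genes 15.5% were called higher and 5.25% lower. Scaled to the median hepatocyte marker, 6 of the 16 were called higher and 1 lower, against 79.5% and 0.549% of all genes. Cyp7a1, the rate-limiting enzyme of bile acid synthesis and a DBP target, went from 4.74 to 19.2 RPKM, and Cdkn1c, an inhibitor of cyclin-dependent kinases, from 1.17 to 6.17 RPKM (log2 fold change 2.31). Other genes known as targets of PAR bZIP factors had these values. Alas1, the first enzyme of heme synthesis, went from 97.5 to 27.0 RPKM (-1.85) and Cyp2a5, a xenobiotic-metabolizing P450, from 50.1 to 13.2 RPKM (-1.91). Por, the reductase that serves P450 enzymes, was at 51.4 and 53.1 RPKM, and at 1.29 on the log2 scale when scaled to the median hepatocyte marker.

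The other genes called lower were Lpin1, Avpr1a, Gys2 and Elovl3. Lpin1, a phosphatidate phosphatase, went from 59.3 to 17.2 RPKM, Avpr1a, a vasopressin receptor, from 18.3 to 4.27 RPKM, and Gys2, the liver glycogen synthase, from 18.5 to 9.06 RPKM. Elovl3, a fatty acid elongase, was at 205 RPKM in the oil library and listed at 0 in the CCl4 library. Scaled to the median hepatocyte marker, Gys2 was at 0.22 and the other genes named here as lower stayed below 0. Wee1, a cell cycle kinase under E-box control, was listed at 0 in the oil library and at 2.02 RPKM in the CCl4 library.

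Markers of cell types differed beside these values, and 15.5% of all genes were called higher and 5.25% lower (8.89% and 9.17% when scaled to the median gene). All 10 hepatocyte markers had a log2 fold change below 0, and 6 of them were called lower (9 when scaled to the median gene). Their median was -1.25 and their summed level was 20036 RPKM under oil and 11634 RPKM under CCl4. Of these markers, albumin (Alb) was at 8656 and 6476 RPKM, so the labelled cell type was present in both. All 10 stellate cell and myofibroblast markers were called higher (9 when scaled to the median gene), with summed levels of 78.1 and 888 RPKM and a median of 3.51. The 10 Kupffer cell and macrophage markers summed to 1539 and 4152 RPKM with 7 called higher (3 when scaled to the median gene). The 10 sinusoidal endothelial cell markers summed to 608 and 1043 RPKM with 2 called higher (0 under that scaling), a share near that of all genes. All 10 nevertheless lay above the median gene, at 0.56 to 1.05 on the log2 scale. Their median was 0.74 against 0.32 for all genes, and 0.44 against 0.03 when scaled to the median gene. Of the defining markers, Pdgfrb was listed at 0 in the oil library, Sox9 of the 5 cholangiocyte markers in both, and Cd3e and Cd8a of the 8 lymphocyte markers in both. Cholangiocyte markers summed to 50.9 and 170 RPKM with 2 called higher (1 when scaled to the median gene). Most of both sums was Spp1, at 37.4 and 145 RPKM. Lymphocyte markers summed to 9.63 and 15.6 RPKM with 2 called higher under either scaling.

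In such bulk samples fewer hepatocytes and less of an mRNA per hepatocyte cannot be told apart, and the part of the other cell types in the clock gene values was not tested. With both libraries scaled to the median hepatocyte marker, 8 of the 9 clock genes with a value were called higher, and so were 9551 of all 12012 genes. Under that scaling Dbp was at 2.82, Nr1d1 at 2.20, Nr1d2 at 1.84, Arntl at 1.17 and Cry1 at 0.32, and the directions of Arntl, Clock, Per2 and Cry1 turned.

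**Figure D4:**
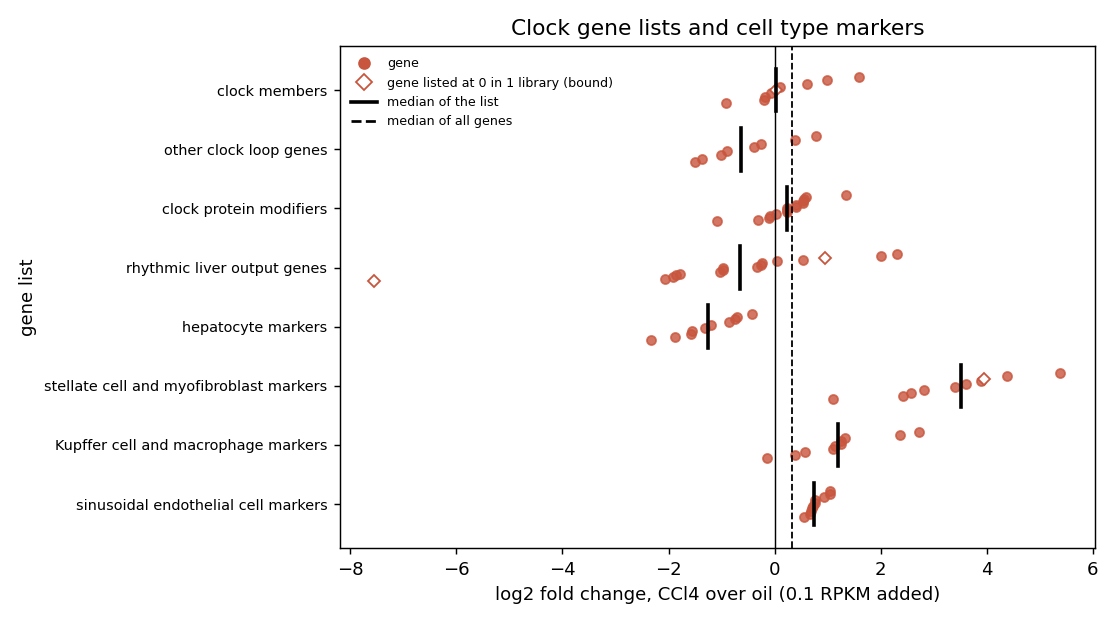
Log2 fold change of each gene (points; diamonds where 1 library lists 0, taken there at 1 RPKM) in 4 clock-related lists and 4 lists of cell type markers, with the median of each list (black bars) and of all genes (dashed line at 0.32). The clock genes spread around 0.02, the other loop genes and rhythmic liver genes lie mostly to the left with the hepatocyte markers, and the stellate cell markers lie far to the right; scaled to the median hepatocyte marker, the medians of the other loop genes and of the rhythmic liver genes turn positive.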

How the data were processed

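RNA-seq was performed on 2 libraries of mouse hepatocytes, 1 of oil-injected and 1 of CCl4-injected animals, grouped by the deposited treatment labels. The deposited values are RPKM, made by the authors for 27457 mRNA transcripts. The submitters' processing notes list CASAVA 1.4, TopHat2 and mm10, and the counting program, its use of strand and the annotation version are not given in the sources used here. The deposited log2 changes, p-values and q-values of the authors were not used, nor were the lncRNA tables.

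Symbols for 27049 transcripts came from a RefSeq gene table of GRCm38.p6, and 408 had no match. For a gene with several transcripts, the one of highest mean RPKM was used. Library totals were those that gave the highest number of whole reads among genes spanning under 1500 bases (40 of 189 genes for oil and 46 of 201 for CCl4, where gene span and transcript length differ for spliced genes; the median over neighboring totals was 10 and 20). Transcript lengths of 200 to 12000 bases were then tried in turn, and the first at which both libraries came out whole set the reads. This recovery was devised after the values were seen. On 1000 simulated transcripts with the true totals given, the reads were exact in 75.9% and below the truth in 24.1%. None could come out above the truth, because the shortest fitting length was taken. The totals of the 2 libraries here were estimated, so these shares may not hold for them. In a simulated data set 94.5% of 200 genes changed 4-fold were called with 0 false calls among 10489, a simulation that holds counting error only.

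Named genes are the 10 clock genes and the genes of 17 fixed lists, of which those past the fold or carrying a result are named. Some items of these lists are counted but not reported here. The genes and lists were chosen with earlier results of these data known. No replicate exists, so no test was run. The alternatives were another pseudocount or none, 3 scalings, summed transcripts, listed zeros, a filter at 5 RPKM and a larger fold. Intervals cover counting error only, and approximate intervals of ratio differences assume Poisson reads. Python 3.11.15, numpy 2.4.6, pandas 2.3.3, scipy 1.17.1 and matplotlib 3.10.9 were used.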

Additional observations from a re-analysis of the deposited data

How the results depend on the processing

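The count of 1 clock gene called higher and 0 lower became 2 higher without a pseudocount (Nr1d1 added) and 2 with listed zeros taken as 0 (Per3 added), 8 higher when scaled to the median hepatocyte marker, 1 lower (Cry1) when scaled to the median gene, and 0 higher with a mean of at least 5 RPKM or with a log2 fold change of 2. The target side minus the activator side, 0.49, became 0.93 with listed zeros taken as 0, 0.77 without a pseudocount and 0.24 with a mean of at least 5 RPKM, where Per1 is the single target left. Cry1, at -0.91 in the main setting, was not counted on the target side, and counting it there would lower the contrast. Of all genes, 1859 were called higher and 631 lower. With 1 RPKM added 1224 were higher, scaled to the median gene 1068 and 1101, scaled to the median hepatocyte marker 9551 and 66, with a mean of at least 5 RPKM 962 were higher, and with a log2 fold change of 2 the counts were 261 and 94. A stricter filter or fold lowers counts by construction, and a scaling adds a constant. Of the fold changes of single clock genes under alternatives, 47 stayed within their counting error (for Per3, the widest of the other genes) and 19 moved by more. Part of the 47 could not move. The filter on the mean leaves the folds of the kept genes as they were, and listed zeros taken as 0 change only Per3. Summing can change only Arntl and Per1, the clock genes with more than 1 transcript. The 47 are therefore no measure of robustness. Summing transcripts and leaving the 10 most abundant mRNAs out of the library size changed no call of a clock gene. No paired analysis was possible because each condition has 1 library, and for the same reason no replicate could be left out. Levels near 1 RPKM (Per3, Npas2) are limited by the values listed as 0.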

Other observations

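Signals that can reset or drive clock genes were described through 5 further lists. Beside their counts, 15.5% of all genes were called higher and 5.25% lower, and scaled to the median hepatocyte marker 79.5% and 0.549%. Of 10 glucocorticoid targets, 4 were called lower and none higher, whereas scaled to the median hepatocyte marker 5 were called higher, against 79.5% of all genes, and 2 lower, against 0.549%. The lower genes were Tat, Mt1, Mt2 and Lcn2, with Mt1 at 1723 RPKM under oil and 314 RPKM under CCl4, and each also responds to other signals. Fkbp5, at 26.5 and 24.5 RPKM, and Tsc22d3, at 81.5 and 79.2 RPKM, stood at similar levels, as did Per1. Scaled to the median hepatocyte marker, Fkbp5 and Tsc22d3 were at 1.13 and 1.21. The remaining targets differed more without reaching a call, with Zbtb16 at -0.69, Dusp1 at 0.38 and Sgk1 at 0.67 on the log2 scale. Whether glucocorticoid signaling differed between the libraries was not tested.

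Of 9 heat shock genes, which share a factor with Per2, 3 were called lower and 1 higher in the CCl4 library (0 and 2 when scaled to the median hepatocyte marker). Scaled to the median gene, 5 were called lower, as also with the 10 most abundant mRNAs left out of the library size. Of all genes 5.25% were called lower in the main setting and 9.17% when scaled to the median gene. The 1 of 9 higher lies near the 15.5% of all genes. Hsph1, Dnajb1 and Hspd1 were the lower genes of the main setting, with Dnajb1 at 34.8 and 13.8 RPKM. Hspa1a, whose near-identical copy Hspa1b was at 28.9 and 30.7 RPKM, was higher at 8.31 and 24.0 RPKM. Scaled to the median hepatocyte marker, Hsph1 and Hspd1 turned to 0.12 and 0.05.

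Fasting genes with a value gave 3 called lower and 1 higher of 8 (1 and 4 when scaled to the median hepatocyte marker), and 1 of 8 higher is again near the 15.5% of all genes. Igfbp1, an insulin-repressed gene, went from 344 to 42.8 RPKM and Pck1, of gluconeogenesis, from 763 to 179 RPKM, while Cyp4a14, a PPAR-alpha target, went from 1.26 to 15.4 RPKM. G6pc was lower in the main setting at -1.14 but at 0.11 when scaled to the median hepatocyte marker. None of 10 feeding genes was called in either direction, although 6 were called higher, against 79.5% of all genes, when scaled to the median hepatocyte marker, with Srebf1 at 27.6 and 26.9 RPKM and Fasn at 43.1 and 51.2 RPKM.

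Immediate early genes, which respond to cell isolation as well as to injury, gave 2 called higher of 10, near the 15.5% of all genes, and 6 when scaled to the median hepatocyte marker, against 79.5% of all genes. Atf3 went from 3.25 to 13.9 RPKM and Nr4a1 from 3.03 to 6.42 RPKM, although Nr4a1 was at 0.76 and short of the fold when scaled to the median gene. Fos was at 19.2 and 26.7 RPKM. Each of these values describes 1 library per condition.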
